A study of Homo sapiens with 6 samples.

Results

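Broad accessible domains are stretches of open chromatin that the peak caller reported as at least 1 peak of 2000 bp or more in every library. Overlapping peaks of the 6 libraries on chromosomes 1 to 22 were merged into 243541 regions, and 730 of these, or 0.300% of them, met that rule. They made up 0.808% of the 90373 regions that had a peak in all 6 libraries, called shared regions from here on. Widths chose the domains, so widths are described without a test. Summit heights did not enter the rule and were tested.

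The libraries came from U2OS, an established human osteosarcoma line, and were made by ATAC-seq, which reads out open chromatin by letting a transposase insert sequencing adapters there. There were 3 libraries of U2OS cells with a CRAMP1 knockout (CRAMP1-KO) and 3 of wild-type (WT) U2OS cells, grown in the same medium, with no agent named for either genotype. Each library was made from 50000 cells, 30 minutes of tagmentation and 7 PCR cycles. Whether the knockout was 1 clone and whether replicates were separate cultures is not stated, so each p-value measures the spread between libraries, which may be technical. Accessible DNA shows neither the CRAMP1 edit nor its RNA, so the genotype labels were not checked here.

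CRAMP1 is a chromatin protein needed for the production of linker histone H1, which the series title names as its subject. H1 binds the DNA where it enters and leaves the nucleosome and helps to fold chromatin. Most accessible sites are short, about the length left free by a few nucleosomes. A continuous open stretch of several kilobases is usually found over CpG-rich promoters of highly transcribed or quickly induced genes, where the promoter, the first exon and nearby enhancers run together into 1 peak.

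The libraries held 133783, 139271 and 158025 peaks in CRAMP1-KO cells, against 198912, 151673 and 132710 in WT cells. An index of sequencing depth, solved from the deposited peak statistics, was 0.827, 0.808 and 1.03 in CRAMP1-KO libraries and 1.60, 1.002 and 0.733 in WT libraries. The genotypes thus overlapped in depth, with WT replicate 1 the deepest and WT replicate 3 the shallowest. Of 8 mesenchymal or bone markers, 7 had a peak at their start in all 6 libraries, the exception being TWIST1. Of 6 markers of other tissues, 1, the epithelial gene EPCAM, had one.

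The promoters shown here were picked because they lie in the domains that carry the results described further on. H1-10 was the domain that narrowed most, H2AC20 lay in a domain that was wider in CRAMP1-KO cells, COL4A1 lay in the domain with the largest loss of summit height, and JUN was the widest domain at a gene of the lists used here. Each run holds 250 bases before and 50 after the transcription start, 5′ to 3′ on the strand of the gene, from RefSeq on GRCh38.p14, and lies on chromosome 3, 13, 1 and 1 in the order given. Capitals mark every match to the GC box GGGCGG, the CCAAT box CCAAT, the AP-1 motif TGANTCA and the H1 box AAACACA, each searched on both strands.
H1-10: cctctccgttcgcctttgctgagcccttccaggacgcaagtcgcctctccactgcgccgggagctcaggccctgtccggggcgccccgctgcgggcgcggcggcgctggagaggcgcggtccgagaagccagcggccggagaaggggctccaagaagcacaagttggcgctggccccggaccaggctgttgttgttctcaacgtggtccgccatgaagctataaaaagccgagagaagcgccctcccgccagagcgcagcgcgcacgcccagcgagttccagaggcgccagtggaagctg
COL4A1: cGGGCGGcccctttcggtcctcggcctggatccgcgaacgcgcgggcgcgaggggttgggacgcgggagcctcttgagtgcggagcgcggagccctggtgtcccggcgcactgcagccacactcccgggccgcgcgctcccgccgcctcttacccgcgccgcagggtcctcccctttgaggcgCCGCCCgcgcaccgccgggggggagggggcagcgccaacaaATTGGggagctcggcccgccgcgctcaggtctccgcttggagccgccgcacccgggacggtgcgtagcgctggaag
JUN: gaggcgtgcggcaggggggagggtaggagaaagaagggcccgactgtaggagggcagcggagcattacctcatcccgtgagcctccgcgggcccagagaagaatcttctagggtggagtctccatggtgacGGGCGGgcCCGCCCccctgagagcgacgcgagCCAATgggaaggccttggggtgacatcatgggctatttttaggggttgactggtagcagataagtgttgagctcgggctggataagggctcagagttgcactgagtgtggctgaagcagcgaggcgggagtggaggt
H2AC20: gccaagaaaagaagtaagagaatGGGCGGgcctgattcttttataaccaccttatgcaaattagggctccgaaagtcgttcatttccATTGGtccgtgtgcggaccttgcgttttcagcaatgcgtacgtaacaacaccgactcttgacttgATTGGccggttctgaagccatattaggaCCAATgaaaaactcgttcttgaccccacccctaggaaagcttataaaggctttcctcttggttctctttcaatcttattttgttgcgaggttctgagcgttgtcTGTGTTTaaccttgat
The H1-10 promoter held no match to the 4 motifs in this window but had 32 CpG dinucleotides and 68.7% G or C. COL4A1 held 2 GC boxes and 1 CCAAT box, and JUN held 2 GC boxes and 1 CCAAT box. H2AC20, a core histone gene, held 3 CCAAT boxes, 1 GC box and 1 H1 box, with 44.7% G or C. Its H1 box match lies in the 50 bases after the transcription start, not before it. Of the 25 listed genes whose start lay in a domain (described further on), 23 had a promoter in the table. A GC box was present in 18 of the 23 (78.3%), against 44.6% of all 27305 promoters, and the median CpG count per promoter was 29, against 14 over all promoters. CCAAT boxes were present in 9 of the 23 (39.1%), against 35.7% of all promoters. AP-1 and H1 box matches were in 0 of the 23, against 7.76% and 5.76% of all promoters. Listed genes without a domain were not compared, so these shares describe hand-picked genes and not the domains. Matches to different motifs were counted separately, and a match describes letters, not a bound factor.

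The domains were 2000 bp wide at the least by construction, and most of them were not much wider. Their median width over libraries was 2376 bp in the middle domain and 5187 bp in the widest, and 76 of the 730 had a median width over 3000 bp. In 662 of them every library had a single peak. Domains held 37.3 to 47.8% of all peaks of 2000 bp or more in CRAMP1-KO libraries and 49.2 to 76.4% in WT libraries, the highest share being that of WT replicate 3, which had the fewest such peaks. They were 29.5% of the 2477 shared regions with a peak of 2000 bp or more in at least 1 library. The covered bases of the domains came to 1841, 1839 and 1879 kb in CRAMP1-KO cells, against 1844, 1817 and 1780 kb in WT cells.

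Widths were continuous across the threshold. The 3 domains just inside it, at chr4:9153661-9155778, chr3:134091833-134094423 and chr2:178128212-178130257 (hg19), each had a narrowest library of 2000 bp. The 3 regions just outside it, at chr1:181057332-181059472, chr2:9909218-9912188 and chr8:145149412-145151536, each fell short by 1 bp in their narrowest library. The narrowest of these values came from a CRAMP1-KO library in 2 of the 6 regions and from a WT library in the other 4.

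Domains lay on every autosome but not in even density. Chromosomes 17, 22 and 21 had 12.4, 12.2 and 11.9 domains per 1000 shared regions, and chromosomes 18 and 20 had 2.71 and 4.73. Domains within 2 Mb of a centromere numbered 14, or 1.92%, against 2.01% of the shared regions. Neighbouring domains were usually far apart, with a median gap of 1424 kb. In 42 places 2 or more domains followed each other with gaps of 50 kb or less, and these places held 89 domains (12.2%). The largest such group was 4 domains in 66.1 kb of chromosome 11 at 64.0 Mb, which holds BAD. A group of 3 lay in 42.1 kb of chromosome 8, and each of the 3 overlaps PLEC.

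The highest summit of a domain was often in the same place in all libraries. It lay within 100 bp over the 6 libraries in 374 domains (51.2%), and its median range was 98 bp. The summits lay in the central one of 3 equal parts of the domain in 291 domains (39.9%). The median summit position moved by a median of 5 bp between genotypes, and by more than 500 bp in 62 domains.

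Of the 10 widest domains, 7 could be given a gene, named after their values were seen except for JUN. The domain with the largest median width, at chr8:145022329-145027650, lies inside PLEC, which encodes plectin, a linker of intermediate filaments. Its widest peak measured 3094, 5251 and 5276 bp in CRAMP1-KO cells, against 5190, 5184 and 3095 bp in WT cells. The short value in each genotype came from a library in which the domain was split into 2 peaks, CRAMP1-KO replicate 1 and WT replicate 3. A second domain inside PLEC, at chr8:145013259-145018349, measured 4829, 4895 and 5013 bp in CRAMP1-KO cells, against 2859, 5053 and 4852 bp in WT cells. WT replicate 1 was there the library with 2 peaks.

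The domain at the start of ARHGDIA lies at chr17:79824741-79830111. It measured 4459, 4466 and 5348 bp in CRAMP1-KO cells, against 5363, 5189 and 5064 bp in WT cells, so that the genotypes overlapped. The JUN domain at chr1:59247516-59251622 measured 3988, 3984 and 4016 bp in CRAMP1-KO cells, against 4097, 4105 and 3134 bp in WT cells. JUN encodes an AP-1 subunit that is induced within minutes by growth factors and stress. Its summit lay within 3 bp in all 6 libraries, while the left edge of the peak in WT replicate 3 lay well inside that of the others. GIT1, a scaffold of focal adhesions, had 4179, 2291 and 3997 bp in CRAMP1-KO cells, against 3946, 3944 and 2157 bp in WT cells. ZBTB47, a zinc finger gene, and PDLIM7, which encodes a PDZ and LIM protein of actin fibres, had median widths of 3834 and 3810.5 bp. The 3 other domains among the 10 widest were at chr1:148927804-148931801, chr11:118779784-118783894 and chr8:143693344-143697171 and are left unnamed. The first of these measured 3922, 3957 and 3998 bp in CRAMP1-KO cells, against 3986, 3961 and 3956 bp in WT cells, a range of 76 bp over the 6 libraries. None of these 10 domains passed the test of summit pileup that is described further on, their log2 changes running from -0.34 to 0.09.

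Width differed little between genotypes. The median domain was 2402.5, 2386.5 and 2455 bp wide in CRAMP1-KO cells, against 2379.5, 2354.5 and 2299 bp in WT cells, so the 3 CRAMP1-KO medians lay above the 3 WT medians. The median log2 change in width, CRAMP1-KO minus WT, was 0.02, or 39 bp, and 561 of the 730 domains (76.8%) had a change above 0. All shared regions gained about the same number of bases, with a median of 41.7 bp, which on their shorter widths is a log2 change of 0.10. The gain was shared by both edges, with a median shift of -13.5 bp at the start and 13 bp at the end. Divided by the median width of the shared regions of the same library, which was 603, 578 and 650 bp in CRAMP1-KO cells and 583, 582 and 495 bp in WT cells, the domains had a median log2 change of -0.12. The direction of the median width change therefore depended on this scaling.

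**Figure D1:**
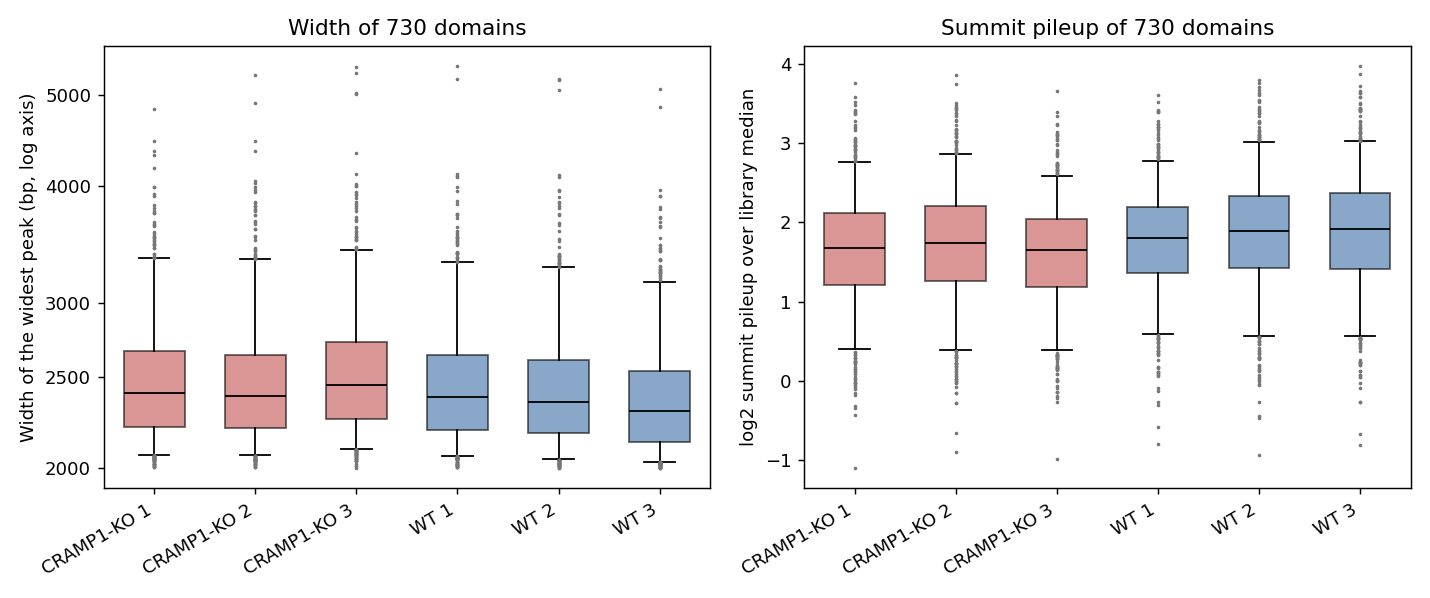
Left, width in bp (log axis) of the widest peak of each of the 730 domains in each library. Right, log2 pileup at the highest summit over the library's median of shared regions. Boxes span the quartiles with the median as a line, whiskers the 5th to 95th percentile, and points the remaining domains. The CRAMP1-KO medians of width, 2386.5 to 2455 bp, lie above those of WT, 2299 to 2379.5 bp, and the CRAMP1-KO medians of pileup, 1.66 to 1.74, below those of WT, 1.81 to 1.91.

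The widths of all 3 CRAMP1-KO libraries lay above those of all 3 WT libraries in 129 domains (17.7%), and below them in 11 domains (1.51%). Over all shared regions, 19.4% were wider and 2.96% narrower in this sense, so the shares in domains were near the background or below it. Counted by covered bases, 131 domains were wider (17.9%, background 19.2%) and 11 narrower (1.51%, background 3.05%). Among the 662 domains with a single peak in every library, 114 were wider (17.2%) and 10 narrower (1.51%). The gain in the 129 wider domains had a median of 138 bp and passed 500 bp in 9 of them, and in 77 of them more than 80% of it was at 1 edge. Relative to the median width of the library's shared regions, 3 domains were wider (background 7.23%) and 125 narrower (17.1%, background 12.6%). With the domains held fixed, these counts cannot fall where a library is left out, and the size of the growth differed between libraries. The wider count was 197 without CRAMP1-KO replicate 1, 201 without CRAMP1-KO replicate 2 and 258 without WT replicate 1, and the narrower count was 18 without CRAMP1-KO replicate 1, 58 without CRAMP1-KO replicate 3, 22 without WT replicate 2 and 53 without WT replicate 3.

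Several of the domains that widened most were split in every WT library. Of the 129 wider domains, 114 had a single peak in every library. More peaks per library were called in WT cells at 49 domains and in CRAMP1-KO cells at 9. In 4 domains every WT library had 2 or more peaks and every CRAMP1-KO library had 1, namely RHOQ, CPEB2, NCAM1 and ACTG1, and the opposite was seen in 0 domains. Domains with more than 1 peak numbered 21, 24 and 17 in CRAMP1-KO libraries, against 39, 34 and 45 in WT libraries, of which replicate 1 was the deepest and replicate 3 the shallowest. The part of depth in these counts was not tested. No share over all shared regions is given beside them, so they cannot be read as particular to the domains. A single peak in every library was found in 662 of the 730 domains and in 81434 of the 90373 shared regions, which are similar shares.

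The largest gain was at chr2:46767876-46771577, at the starts of RHOQ, a small GTPase, and ATP6V1E2, a subunit of the vacuolar proton pump. The widest peak there measured 3537, 3670 and 3528 bp in CRAMP1-KO cells, against 2044, 2024 and 2762 bp in WT cells. The covered bases, which add the pieces, were 3537, 3670 and 3528 bp in CRAMP1-KO cells, against 3367, 3349 and 3250 bp in WT cells. Most of the log2 width change of 0.67 was thus a gap in the WT peaks, although the 3 CRAMP1-KO values were also higher in covered bases. The gap lay to the left of the summit in WT replicates 1 and 2 and to the right of it in WT replicate 3.

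A group of core histone genes followed, at chr1:149856337-149860235 with the starts of H2BC21, H2AC20 and H2AC21, which encode histones H2B and H2A. The widest peak measured 3244, 3381 and 3153 bp in CRAMP1-KO cells, against 2478, 2326 and 2299 bp in WT cells, a log2 change of 0.46. Reads from near-identical histone genes can be placed at either copy, and how the authors treated such reads is not given in the sources used here. In covered bases the genotypes overlapped, with 3244, 3559 and 3153 bp in CRAMP1-KO cells, against 3705, 2950 and 2813 bp in WT cells. At CPEB2, which encodes an RNA-binding regulator of translation, the widest peak measured 3634, 3655 and 3673 bp in CRAMP1-KO cells, against 2641, 2642 and 2875 bp in WT cells. The left edge at CPEB2 was within 13 bp in all libraries, and a piece at the right end was separate in each WT library.

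At UBTF, which encodes a transcription factor of ribosomal RNA genes, the values were 2885, 2385 and 3504 bp in CRAMP1-KO cells, against 2175, 2224 and 2077 bp in WT cells. At NCAM1, a cell adhesion gene, they were 2698, 2698 and 2724 bp in CRAMP1-KO cells, against 2030, 2012 and 2028 bp in WT cells, and the covered bases did not overlap either, at 2698, 2698 and 2724 bp in CRAMP1-KO cells, against 2480, 2439 and 2478 bp in WT cells. Summit pileup was not called different at any of these 5 domains. The log2 changes ran from -0.27 at RHOQ to 0.02 at the histone genes, with limma adjusted p between 0.099 and 0.97.

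The largest narrowing of the 730 domains was at H1-10, a gene for a linker histone. The domain at chr3:129031713-129035839 was a single peak of 2420, 3117 and 3124 bp in CRAMP1-KO cells, against 4080, 4088 and 3897 bp in WT cells, a log2 change of -0.49. Each CRAMP1-KO width was at least 773 bp below each WT width. Among the 81434 shared regions with a single peak in every library, no other had a larger mean loss of bases than the 1135 bp lost at H1-10. With split regions included it ranked 6 in bases lost among all 90373 shared regions. Wide regions can lose most on the scale of bases, and the median shared region was 583, 582 and 495 bp wide in WT libraries. Both ranks by bases are therefore description only. On the log2 scale, where short regions change most, it ranked 2725, and 1087 of the 2679 shared regions that narrowed without overlap had a change at least as large.

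The change was at 1 side of the domain. H1-10 is transcribed from right to left, and the edge upstream of its start lay 685, 708 and 719 bp from the start in CRAMP1-KO cells, against 672, 680 and 564 bp in WT cells. The edge on the downstream side lay 1734, 2408 and 2404 bp from the start in CRAMP1-KO cells, against 3407, 3407 and 3332 bp in WT cells. With a gene length of 1516 bases, taken from RefSeq on GRCh38.p14, the peak ended 218, 892 and 888 bp past the end of the gene in CRAMP1-KO cells, against 1891, 1891 and 1816 bp in WT cells. By the start used here, which was written by hand, the bases left out of the CRAMP1-KO peaks thus lie beyond the far end of the gene.

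The summit of H1-10 did not move with the edge. It lay 1288 to 1344 bp downstream of the start in all 6 libraries, near the far end of the gene. The pileup there was 151, 176 and 264 in CRAMP1-KO cells, against 290, 231 and 167 in WT cells, a log2 change of -0.13 ± 0.12 (SE) relative to the library medians, which did not pass the test (limma, adjusted p = 0.45).

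**Figure D2:**
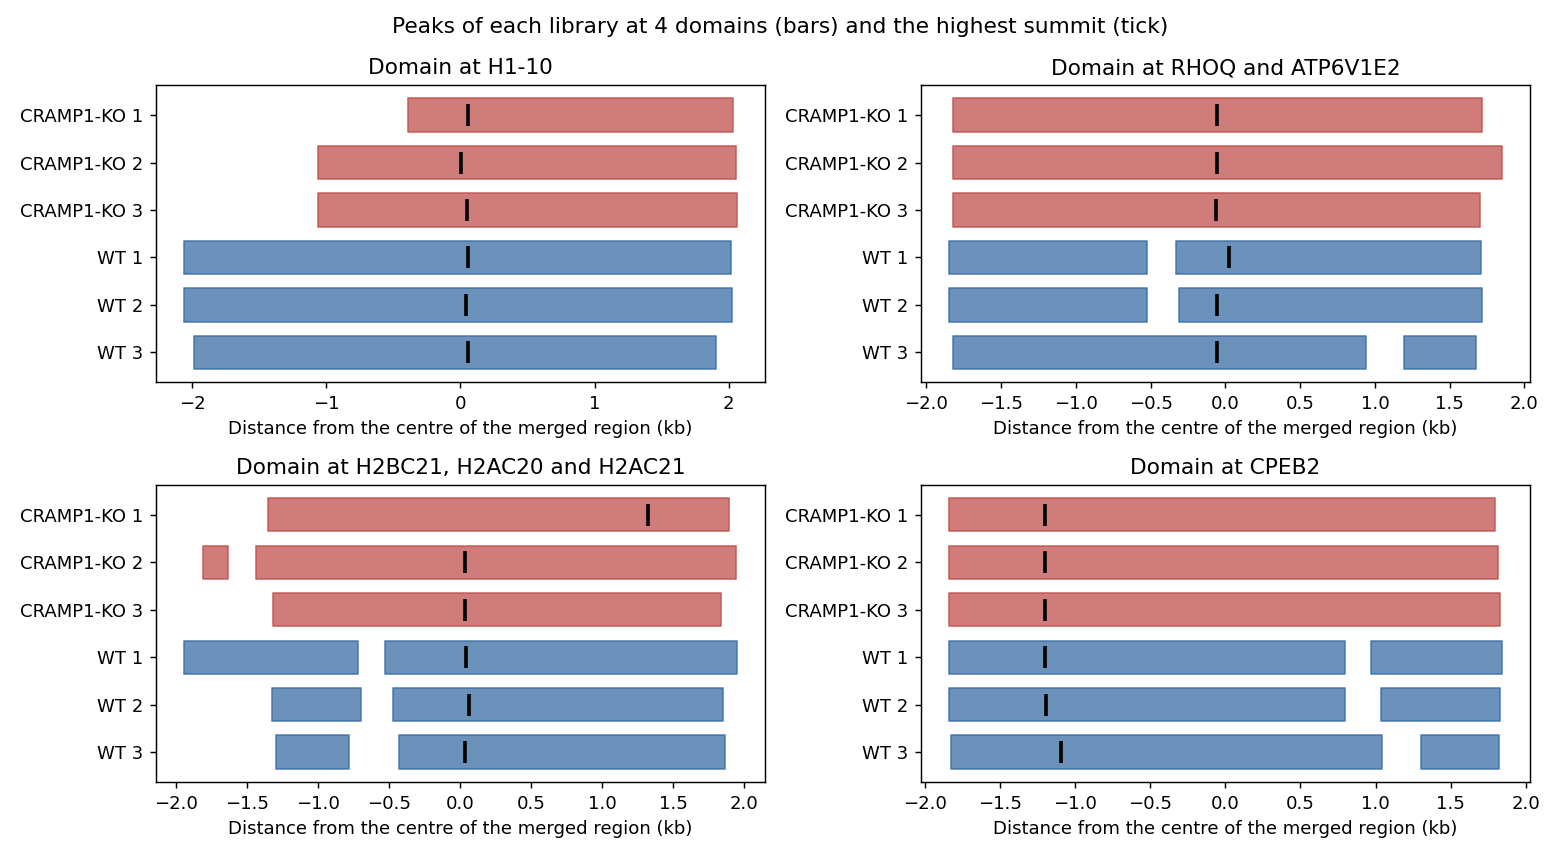
Peaks (bars) of each library at 4 domains, as distance in kb from the centre of the merged region, with the highest summit as a tick and CRAMP1-KO libraries in red above WT libraries in blue. At H1-10 the left edge, which is downstream of the gene, lies further in for all 3 CRAMP1-KO libraries, and at the other 3 domains the WT peaks are split by a gap that the widest CRAMP1-KO peak spans.

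The other domains that narrowed without overlap changed less. At chr14:69503576-69506455, which is left unnamed, the widest peak measured 2379, 2427 and 2112 bp in CRAMP1-KO cells, against 2870, 2860 and 2855 bp in WT cells, and the right edge was within 10 bp in all libraries. The changes at chr14:48143217-48145703, at PNPLA2, which encodes a triglyceride lipase, and at NBL1, which encodes a secreted BMP antagonist, were -0.08, -0.08 and -0.06 on the log2 scale.

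Summit pileup is the number of fragments or extended reads stacked over the highest point of a domain, solved from the deposited fold enrichment and p. It follows the depth of a library and was therefore compared after centring on the library's median over the shared regions. Relative to the shared regions, domains stood lower in CRAMP1-KO cells. The median domain had a pileup of 197.5, 210.5 and 306 in CRAMP1-KO cells, against 339.5, 327 and 203.5 in WT cells. As log2 over the median of the library's shared regions these were 1.67, 1.74 and 1.66 in CRAMP1-KO cells, against 1.81, 1.89 and 1.91 in WT cells, with no overlap between genotypes. Median fold enrichment of the domains over the local background, not centred, was 7.47, 8.18 and 7.65 in CRAMP1-KO cells. In WT cells it was 8.79, 8.69 and 8.64. The shared regions had medians of 8.22, 8.75 and 9.62 in CRAMP1-KO cells, against 8.79, 9.45 and 8.61 in WT cells. Relative to these, CRAMP1-KO replicate 2 lay above WT replicate 2, so the genotypes overlapped in fold enrichment.

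The median log2 change of pileup over the domains was -0.18, against -0.07 over all shared regions, and 647 of the 730 domains (88.6%) were below 0. By limma over all shared regions, at a Benjamini-Hochberg adjusted p below 0.05, 71 domains were lower in CRAMP1-KO cells (9.73%, background 10.5%) and 1 was higher (0.137%, background 7.25%). The share of lower calls was therefore near the background, and the share of higher calls below it. At an unadjusted p under 0.05 there were 221 lower (30.3%, background 21.3%) and 5 higher (0.685%, background 13.3%). The count of lower domains was 32 without CRAMP1-KO replicate 1, 27 without CRAMP1-KO replicate 3, 47 without WT replicate 1, 19 when WT replicate 2 was left out and 24 when WT replicate 3 was, and the median change lay between -0.21 and -0.16 in these fits.

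Shared regions of other widths had median log2 changes of -0.01 (narrowest library under 500 bp), -0.09 (500 to under 1000 bp), -0.18 (1000 to under 1500 bp) and -0.18 (1500 to under 2000 bp). Split by mean pileup into 10 classes of equal size, the shared regions had a median change of 0.02 in classes 3 and 4 and -0.18 in class 10, the highest, which held 384 of the 730 domains. When the libraries were given the same distribution of pileup by quantile normalization (added after the data had been seen), the median change of the domains was -0.04, with 22 lower (background 8.02%) and 6 higher (background 8.09%).

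**Figure D3:**
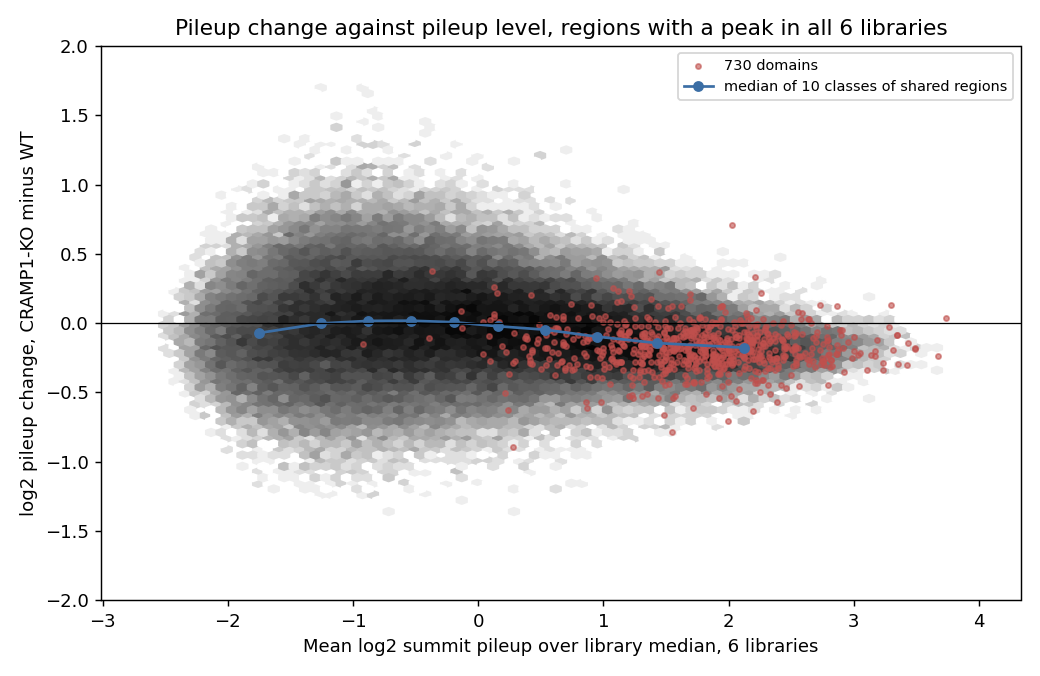
Log2 change of summit pileup, CRAMP1-KO minus WT, against mean log2 pileup over the library median, for the 90373 shared regions (grey, darker for more regions on a log colour scale; 1 region lies outside the axis) and the 730 domains (red). Blue points are medians of 10 classes of shared regions of equal size, ordered by pileup, which come down to -0.18 in the highest class, where 384 of the domains lie.

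Lower domains were most frequent on chromosomes 11 and 13. Chromosome 11 held 20 of the 71 lower domains among its 46 (43.5%), against 21.6% of its shared regions, and chromosome 13 held 6 among its 14 (42.9%), against 27.8% of its shared regions. On chromosome 11 all 7 domains of the first 15 Mb were lower, against 50.2% of the 636 shared regions there. The median log2 pileup change was -0.53 in these domains and -0.43 in those shared regions. The local background of the same domains had a median change of -0.36. With each region scaled to its own 5-Mb neighbourhood, 0 of these domains were lower. Between 60 and 70 Mb of chromosome 11, 11 of 16 domains were lower, against 40.9% of the 768 shared regions there. The median change of these domains was -0.44 in pileup and -0.28 in background, and that of the shared regions -0.35 in pileup. In the 5-Mb scaling 2 of the 16 were lower.

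**Figure D4:**
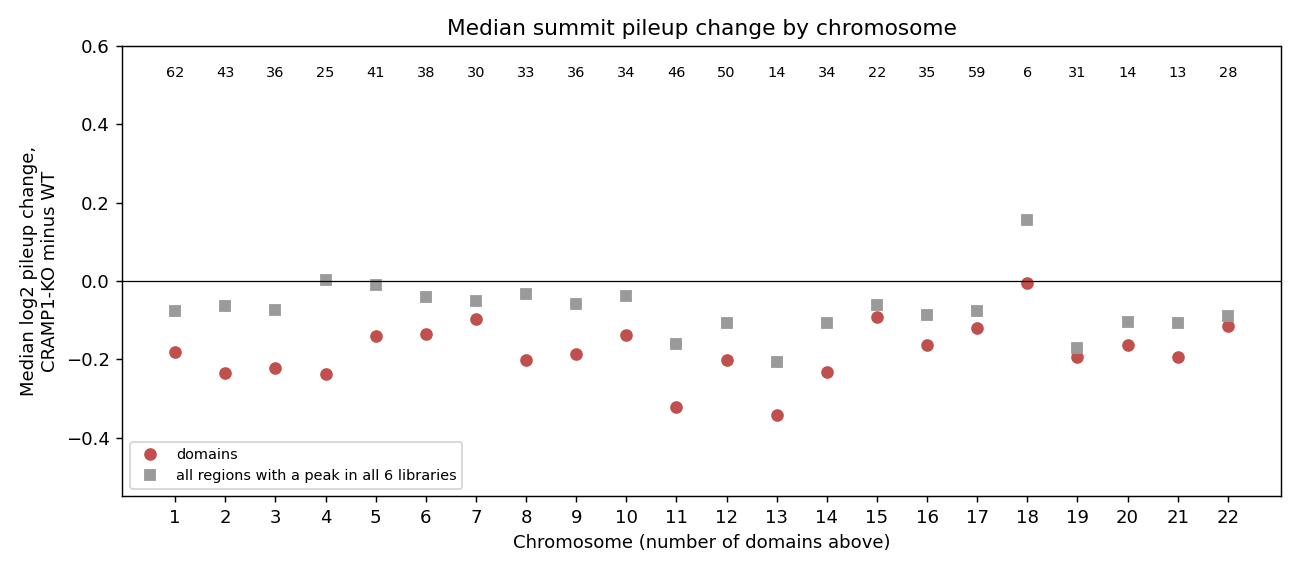
Median log2 change of summit pileup, CRAMP1-KO minus WT, of the domains (red circles) and of all shared regions (grey squares) on each autosome, with the number of domains above. The domains lie below the shared regions on all 22 chromosomes, lowest at -0.34 on chromosome 13 and -0.32 on chromosome 11.

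Local background, the level around the summit to which the caller compared it, was itself higher in 19 domains (2.60%, background 7.91%) and lower in 29 (3.97%, background 7.55%) by limma, with a median log2 change of -0.01. These counts depended on single libraries, with 107 lower and 14 higher without WT replicate 1, 19 lower and 39 higher without WT replicate 2, 17 lower and 22 higher without WT replicate 3, and 19 lower and 12 higher without CRAMP1-KO replicate 2. Median local background at the domains was 25.2, 24.6 and 38.5 in CRAMP1-KO libraries, against 37.3, 36.4 and 22.1 in WT libraries. Over the shared regions it was 6.42, 6.03 and 8.81 in CRAMP1-KO libraries, against 10.1, 8.17 and 5.18 in WT libraries. How far the reads of a domain entered its own background was not tested. Of the 71 domains with lower pileup, 23 also had a lower background. With each region scaled to its own 5-Mb neighbourhood, 27 domains were lower (background 7.68%) and 4 higher (background 5.05%). Of the 71, 15 remained lower. The matching shares among all shared regions with lower pileup are not given, so 23 and 15 cannot be read as particular to the domains.

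The largest loss of summit pileup was at the shared promoter of COL4A1 and COL4A2, which encode the chains of type IV collagen of basement membranes and are transcribed away from each other. The domain at chr13:110958734-110961421 had a pileup of 55, 52 and 93 in CRAMP1-KO cells, against 176, 139 and 85 in WT cells. On the centred scale this was a log2 change of -0.89 ± 0.12 (SE; limma, adjusted p = 0.0016), lower in all 3 CRAMP1-KO libraries. The width changed by -0.06 on the log2 scale, with 2336, 2605 and 2608 bp in CRAMP1-KO cells, against 2688, 2611 and 2588 bp in WT cells. The local background was lower by 0.63 in log2 terms, and within the 5-Mb neighbourhood the pileup change was -0.41 (adjusted p = 0.056).

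The next 4 lower domains were all on chromosome 11. KCNQ1, a potassium channel gene, holds one inside the gene at chr11:2553818-2556098, with a pileup of 140, 142 and 210 in CRAMP1-KO cells, against 335, 359 and 216 in WT cells, a log2 change of -0.78 ± 0.11 (SE; limma, adjusted p = 0.0023). Within its 5-Mb neighbourhood the change was -0.19 (adjusted p = 0.28). SLC25A22, a mitochondrial glutamate carrier, had 152, 144 and 189 in CRAMP1-KO cells, against 318, 315 and 201 in WT cells, a log2 change of -0.67 (limma, adjusted p = 0.0062) that came to -0.07 within its neighbourhood (adjusted p = 0.70). These changes were thus mostly those of the surrounding 5 Mb.

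EHD1 and BAD kept their call in that scaling. EHD1, which acts in the recycling of membrane receptors, had a pileup of 170, 211 and 319 in CRAMP1-KO cells, against 448, 458 and 294 in WT cells, a log2 change of -0.71 ± 0.12 (SE; limma, adjusted p = 0.0053). Within its 5-Mb neighbourhood the change was -0.54 (adjusted p = 0.018). BAD, which promotes cell death by binding BCL-2 family proteins, had 220, 252 and 337 in CRAMP1-KO cells, against 520, 534 and 307 in WT cells, a log2 change of -0.64 ± 0.11 (SE; limma, adjusted p = 0.0055). Within its neighbourhood it was -0.47 (adjusted p = 0.023). As fold enrichment over the local background none of these 5 domains passed, with log2 changes of -0.29 to -0.23 and adjusted p from 0.17 to 0.27.

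The single higher domain was at the start of CDH2, which encodes N-cadherin, an adhesion protein of mesenchymal cells. The pileup was 192, 200 and 290 in CRAMP1-KO cells, against 215, 209 and 141 in WT cells, a log2 change of 0.37 ± 0.11 (SE; limma, adjusted p = 0.044) at nearly equal widths of 3254, 3147 and 3240 bp in CRAMP1-KO cells, against 3250, 3136 and 3224 bp in WT cells. The local background there was higher by 0.58, and within the 5-Mb neighbourhood on chromosome 18 the pileup change was -0.03 (adjusted p = 0.90). The call was lost without any 1 of the 6 libraries, with adjusted p from 0.052 to 0.12. A larger positive change that did not pass was at chr21:9856065-9858318, a domain picked out after its values were seen. Its pileup was 421, 386 and 328 in CRAMP1-KO cells, against 235, 321 and 198 in WT cells, a log2 change of 0.71 ± 0.25 (SE; limma, adjusted p = 0.074). Within its neighbourhood it was 1.06 (adjusted p = 0.016), against a 5-Mb median whose number of shared regions is not given here.

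**Figure D5:**
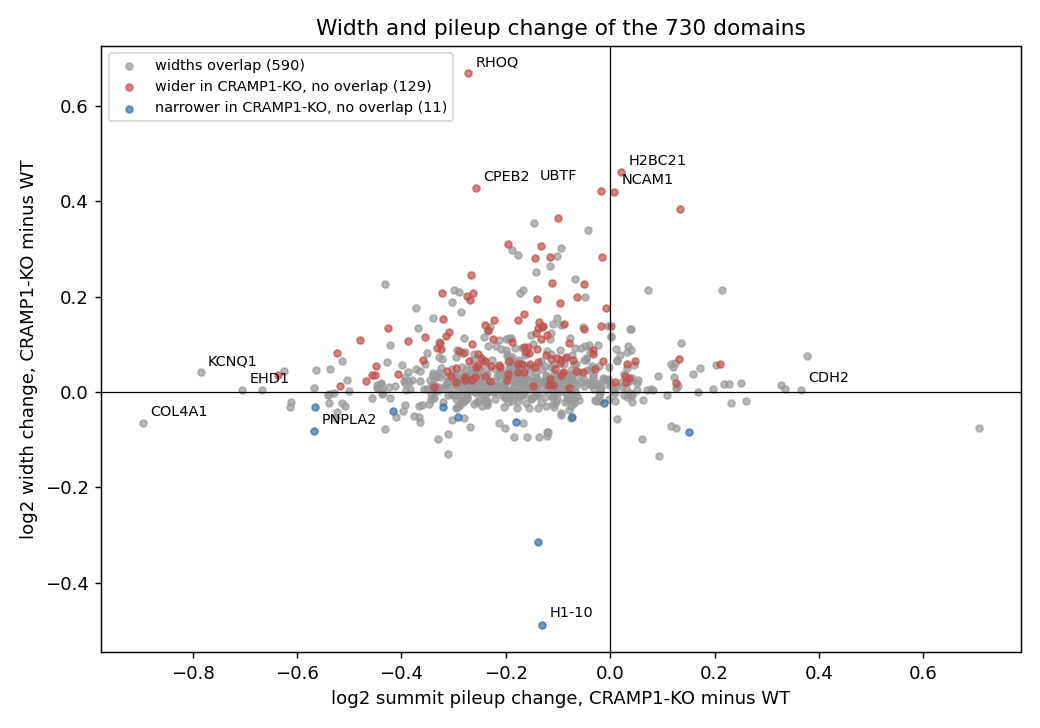
Log2 change in width against log2 change in summit pileup, CRAMP1-KO minus WT, for the 730 domains, with domains wider (129, red) or narrower (11, blue) without overlap and the rest in grey. The domains that lost most pileup, COL4A1, KCNQ1 and EHD1, lie near a width change of 0, and those that changed most in width, RHOQ at 0.67 and H1-10 at -0.49, have pileup changes of -0.27 and -0.13.

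Of the 71 domains with lower pileup, 10 were wider without overlap (14.1%) and 2 narrower (2.82%), shares near those over all domains, 17.7% and 1.51%, and over all shared regions, 19.4% and 2.96%. PNPLA2 was one of these 2. Its pileup was 113, 102 and 140 in CRAMP1-KO cells, against 212, 230 and 131 in WT cells, a log2 change of -0.57 (limma, adjusted p = 0.014) that was 0.03 within its neighbourhood (adjusted p = 0.89).

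Domains lay at the starts of several genes listed for a quick response to signals and of some listed as housekeeping genes. No RNA was measured here. Of 114 genes in the lists, 100 had a peak at their start in all 6 libraries and 25 had a domain there, with median widths of 2116 to 4002 bp. The immediate early genes, which are induced without new protein synthesis, had 7 of 23 in a domain, namely JUN, JUND, EGR1, ZFP36L2, MAFF, SIK1 and NFKBIA. Other transcription regulators had 5 of 18, namely CEBPB, BHLHE40, SOX4, MAFG and TOB1. Stress and p53 target genes had 3 of 11, namely CDKN1A, GADD45B and SQSTM1, and targets of the growth regulator YAP had 2 of 10, namely THBS1 and CAV1. Genes listed as housekeeping had 4 of 18, namely ACTG1, GAPDH, H1-10 and AHNAK. Mesenchymal genes had 2 of 11, namely VIM and HMGA2, and developmental regulators 2 of 13, namely PITX1 and HOXA13. Cell cycle genes had 0 of 4 and genes of other tissues 0 of 6. These lists were chosen by hand with results of these data known, so the shares describe the lists and not the genome.

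Summit pileup at the 25 genes was mostly below 0 and mostly not called. The log2 change was below 0 at 22 of them, with a median of -0.13 and a range of -0.46 to 0.05, and 1 of the 25 was called lower (4%, background 10.5%). That was SIK1, which encodes a salt-inducible kinase. Its pileup was 201, 221 and 304 in CRAMP1-KO cells, against 459, 366 and 253 in WT cells, a log2 change of -0.46 ± 0.11 (SE; limma, adjusted p = 0.020), and -0.22 within its neighbourhood (adjusted p = 0.23). The call was lost without CRAMP1-KO replicate 1 or 3, or WT replicate 1 or 3, with adjusted p from 0.054 to 0.062.

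The nearest to the threshold after it were CEBPB, a CCAAT-binding factor, with a log2 change of -0.34 (limma, adjusted p = 0.052), and NFKBIA, the inhibitor of NF-kappaB, with -0.33 (adjusted p = 0.057). EGR1, a zinc finger factor, had 374, 424 and 554 in CRAMP1-KO cells, against 643, 689 and 428 in WT cells, a log2 change of -0.28 (adjusted p = 0.13). CDKN1A, the p21 inhibitor of the cell cycle, was at -0.14 (adjusted p = 0.40). GAPDH, a glycolytic enzyme, had some of the highest summits of the listed genes, with 639, 680 and 827 in CRAMP1-KO cells, against 914, 948 and 606 in WT cells, a log2 change of -0.09 (adjusted p = 0.65). VIM, the mesenchymal intermediate filament gene, was at -0.01 (adjusted p = 0.95).

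Widths at the 25 listed genes did not overlap between genotypes in 7 cases, 5 of them wider in CRAMP1-KO cells (20%, background 19.4%) and 2 narrower (8%, background 2.96%). BHLHE40, a repressor with a basic helix-loop-helix, measured 2978, 2967 and 3076 bp in CRAMP1-KO cells, against 2557, 2553 and 2500 bp in WT cells. ACTG1, the gene for cytoplasmic gamma-actin, measured 2654, 2977 and 2750 bp in 1 peak in each CRAMP1-KO library, against 2304, 2120 and 2083 bp with 2 peaks in each WT library. MAFG, a small MAF factor, measured 2994, 2913 and 3027 bp in CRAMP1-KO cells, against 2780, 2663 and 2679 bp in WT cells. AHNAK, which encodes a giant scaffold protein, and MAFF, another small MAF factor, were wider by smaller margins of 5 and 11 bp between the nearest libraries. H1-10 and VIM were narrower, and at VIM the margin was 2 bp, with 2434, 2478 and 2471 bp in CRAMP1-KO cells, against 2480, 2482 and 2539 bp in WT cells.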

How the data were processed

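The authors deposited 6 peak lists, 1 per library and without pooling, on hg19. Per the submitters' processing notes they used bcl2fastq 2.20.0, cutadapt 3.4, BWA 0.7.17-r1188 and MACS3. Not given in the sources used here are the MACS3 settings, the treatment of duplicate or multiply placed reads and whether transposase offsets were corrected. The deposited fold enrichment is a ratio of summit pileup to local background. The deposited −log10 p and −log10 q rate a peak against that background. The deposited score is 10 times the −log10 q, truncated to a whole number. All 4 are the authors' values.

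Pileup and background were solved for every summit from the fold enrichment, with its pseudocount of 1, and the Poisson p. The solution was whole within 0.01 for 100% of peaks in every library. The depth index is the lowest background of a library over its lowest peak width. Total reads are unknown, so no counting interval is given.

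Peaks overlapping by 1 bp or more on chromosomes 1 to 22 were merged. The width of a region is its widest peak in a library, and its pileup that of its highest summit. Log2 pileup was centred on each library's median over the 90373 shared regions and fitted with limma 3.58.1 in R 4.3.3, two-sided, adjusted by Benjamini-Hochberg over all of them at a threshold of 0.05. Local background was fitted likewise. Solver and fit were tested on simulated data, with lower backgrounds and larger changes than those of most domains. Those tests therefore do not measure performance at the domains, and their outcome is not given here. Coordinates are counted from 1.

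The files name no genes. Starts of 114 genes, and the extents of further genes added after values were seen, of which 22 were kept, were written by hand for hg19. Both were checked against a RefSeq table of GRCh38.p14 for chromosome, and the extents also for length, within 15%. Of 39 pairs of neighbouring starts within 5 Mb, 25 kept their GRCh38 spacing within 1000 bp, with a median difference of 163 bp. Distances from a start are therefore approximate. A start is in a domain when it lies within 500 bp of it. Named domains are the 10 widest, all at a listed start, in each direction the 5 with the largest called pileup change and the 5 with the largest width change without overlap, and the 3 on each side of the threshold. Members, lists and rules were chosen with earlier results of these data known.

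Alternatives were other thresholds of width, overlap and q, covered bases, other scalings and region sets, limma's trend, a replicate block and leaving out each library. Deviations from the group means correlated at 0.057, 0.062 and -0.090 between libraries with the same replicate number, so the numbers were not taken as pairs.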

Additional observations from a re-analysis of the deposited data

How the results depend on the processing

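Total reads are unknown and each genotype has 3 libraries, which limits how small a difference could be called. The number of domains followed the width threshold, with 3123 at 1500 bp and 46 at 3000 bp, and was 730, 730 and 729 with an overlap of 200 bp, a −log10 q of 5 and a −log10 q of 10. Leaving out a library gave 734 to 902 domains. With the 1500 bp threshold, 541 of the 3123 domains were wider in CRAMP1-KO cells without overlap and 58 narrower. With the 3000 bp threshold, 6 of the 46 were wider and 0 narrower. With widths relative to the library median, 3 of the 730 were wider and 125 narrower. Widths relative to the library median turned the median log2 width change to -0.12. Without 1 library, the wider count was 145 to 258, the narrower count 16 to 58 and the median width change 0.01 to 0.03.

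Domains with lower pileup in CRAMP1-KO cells numbered 71 (background 10.5%) and those with higher pileup 1 (background 7.25%). Backgrounds were 7.68% and 5.05% with 5-Mb bin scaling, and 8.02% and 8.09% with quantile normalization. For the other settings no background share is given and some fitted fewer regions, so their counts cannot be set directly against 71 and 1. There were 16 lower and 1 higher with genome background scaling, 27 and 4 with 5-Mb bin scaling, 2 and 0 by fold enrichment, 56 and 1 with the mean over summits, 186 and 3 among regions above the median pileup, 38 and 0 without chromosomes 4, 11, 13 and 18, 22 and 6 with quantile normalization, 67 and 16 among regions in the pileup range of the domains, and 207 and 4 with limma's trend. Without 1 library they were 19 to 48 and 0 to 1. The median log2 pileup change was below 0 in all of these, at -0.037 with quantile normalization, -0.064 in the pileup range, and -0.21 to -0.16 without 1 library. Quantile normalization, the pileup range and the width change without chromosomes 4, 11, 13 and 18 (0.02) were added after seeing the data. Domains with lower and higher local background, 29 and 19, became 23 and 12 with limma's trend, and 17 to 107 and 12 to 39 without 1 library. The replicate block gave 50 lower and 0 higher by pileup, and 47 lower and 35 higher by background; the numbers do not pair the libraries.

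Of 814 values for 52 named domains, 27 lost and 16 gained a call and 4 turned direction. These were ACTG1 at 0.52 with the mean over summits, CDH2 at -0.027 with 5-Mb bin scaling and -0.17 by fold enrichment, and PNPLA2 at 0.029 with 5-Mb bin scaling. A further 74 changes of sign concerned values that were called under neither setting. The cause was not tested in any of these.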
